A study of Rattus norvegicus with 7 samples.

Results

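Gene expression in the rat adrenal gland after chronic stress was compared with that in unstressed rats by setting all stressed libraries, whichever protocol they came from, against all control libraries. The comparison used 7 of the 7 libraries in the series, with 4 in the stressed arm and 3 in the control arm. Of the stressed libraries, 2 came from rats exposed to chronic variable stress (CVS), in which physical, psychological and social stressors of many kinds alternated. These included foot shock, food and water deprivation and disruption of the circadian rhythm. The other 2 came from rats exposed to chronic shock (CS), which lived alone on a metal grid and received foot shocks at random times and of random strength. Control rats lived in social groups and were only weighed and cared for. CVS rats were counted among the socially housed animals and met isolation as 1 of their stressors. CS rats were kept in a room apart from the other groups. In CS the shocks, the grid, the single housing and the room cannot be told apart. All rats were male Sprague-Dawley animals. The protocols ran for 3 weeks, typically from postnatal day 28 to 49, and the adrenal glands were taken on day 50 to 51 within one window of the light phase. Each library was made from RNA pooled from 8 to 9 animals, and the errors below therefore describe differences among pools, not among animals. In the pooled comparison, which had no term for the protocol, the errors also take in differences between CVS and CS. Because whole glands were used, fewer cells of a type and less RNA per cell cannot be told apart in any value below.

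The adrenal gland consists of a cortex, which stores cholesterol esters in lipid droplets and converts cholesterol to corticosteroids and aldosterone, and a medulla, whose chromaffin cells make and secrete catecholamines. Chronic stress keeps both parts active, the cortex through pituitary ACTH and the medulla through its nerve supply. Fat surrounds the gland, and its own clock genes cycle over the day. Genes of lipid handling, steroid synthesis, the clock, catecholamine transport, retinoid metabolism, drug-metabolizing enzymes, matrix and growth were therefore described by group.

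The libraries held 20095746 to 32242123 counts assigned to genes. Their codes begin with DM6 (Control 1, CVS 1, CS 1), DM8 (Control 2, CVS 2) or DM10 (Control 3, CS 2), and what this prefix marks is not stated in the sources used here. The 3 DM6 libraries were the deepest and stood apart from the other 4 on the first principal component of the log2 values, which carried 35.2% of the variance. The prefix was therefore a term in the model, and each stressed library was also compared with the control library of its own prefix. Levels are given as CPM, counts scaled to a common library total after TMM normalization. Symbols were known only for the 276 genes that the study had selected on these same libraries, so counts of listed genes are a description and not independent evidence. Of 13 cortex markers 3 had a symbol (*Cyp11b2*, *Scarb1*, *Nr0b1*) and of 13 chromaffin markers 2 (*Chgb*, *Slc6a2*), and all 5 were measured in every library. *Scarb1*, the HDL receptor that takes up cholesterol esters, had 2396 to 2884 CPM in control and 2736 to 3992 CPM in stressed libraries. *Chgb*, a protein of chromaffin granules, had 1095 to 1236 and 1048 to 1555 CPM.

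Of the 15314 genes tested, 162 (1.06%) were called at an adjusted p under 0.05 in the stressed against the control libraries, 69 of them higher (0.451%) and 93 lower (0.607%) (quasi-likelihood test of edgeR, adjusted by Benjamini-Hochberg). Before adjustment 1657 genes (10.8%) had a p under 0.05. Most changes were small. Only 14 of the 69 higher genes had a log2 fold change of at least 1 and 14 of the 93 lower genes one of -1 or below, whereas 73 of the 162 changed by less than 0.5. The median log2 fold change was 0.53 in the genes called higher and -0.52 in those called lower, and 0.0046 over all genes tested. Among the 162 genes, the arms did not overlap in 150, against 1122 (7.33%) of all genes tested, 564 of which were higher (3.68%) and 558 lower (3.64%) under stress. In all 162 each stressed library lay on the same side of the control library with its own prefix, which was the case for 3570 (23.3%) of all genes, above it in 12.1% and below it in 11.2%. Among the 276 genes with a symbol, which the study had selected, 114 were called (41.3%), 45 higher (16.3%) and 69 lower (25%), and the counts of listed genes below are to be read against these shares. The smallest of the differences within a prefix was 0.063 on the log2 scale.

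**Figure D1:**
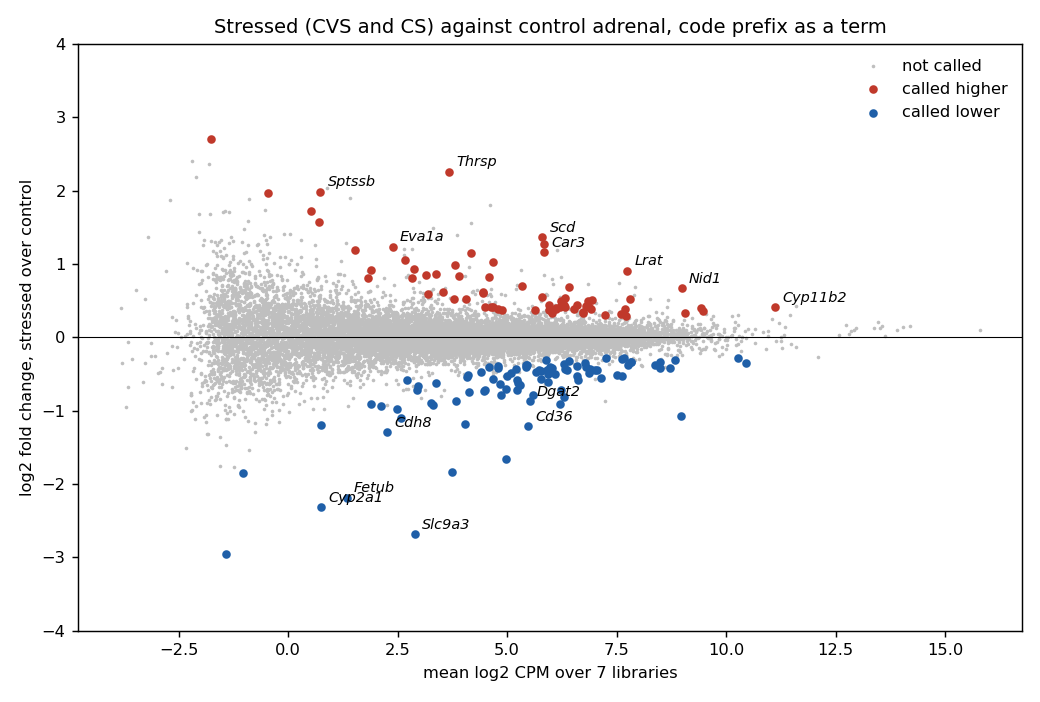
Log2 fold change of the stressed over the control libraries (y axis) against the mean log2 CPM over the 7 libraries (x axis) for the genes tested, with genes called higher in red, genes called lower in blue and all others in grey. *Thrsp* (2.26) lies highest and *Slc9a3* (-2.68) lowest among the labelled genes, and most called genes lie within 1 of the zero line.

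The number of genes called depended on the model. With no prefix term 21 genes were called (0.137%), and with the replicate number in its place 27 (0.176%). All 162 genes kept their direction in both of these fits, and 161 had an unadjusted p under 0.05 in each. Of the 56 called genes chosen by the rule for naming or for a difference between CS and CVS, 17 were also called with the replicate number. These were *Thrsp*, *Scd*, *Car3*, *Eva1a*, *Nid1* and *Lrat*, which rose, and *Slc9a3*, *Cd36*, *Dgat2*, *Rprm*, *Fetub*, *Cdh8*, *Aldh1a3*, *Cyp4f4*, *Hoga1*, *Cyp27a1* and AABR07063425.1, which fell. For the other 39 the Benjamini-Hochberg adjusted p of edgeR lay between 0.0528 and 0.58 in that fit. Without Control 1, the only control library of the DM6 prefix, 20 genes were called. CVS 1 and CS 1 then had no control of their prefix, so the arms were compared through Control 2, CVS 2, Control 3 and CS 2. Leaving out all 3 DM6 libraries gave 250, with fewer residual degrees of freedom. Both of these fits thus compared the arms through the same libraries, but estimated the error from different sets. Without Control 3 there were 92 and without CS 2 there were 95. Of the 162 genes, 11 were called in each of 20 other fits, which included other tools, filters and terms and the omission of each library. They included *Thrsp*, *Scd*, *Car3*, *Eva1a* and *Nid1*, which rose, and *Cd36*, *Rprm*, *Fetub*, *Aldh1a3* and AABR07063425.1, which fell. Every other called gene named below lost its call in at least 1 of the 20 fits, and the number of fits that called it is given where the gene is described. *Cyp2a1*, ENSRNOG00000003769, ENSRNOG00000001416 and ENSRNOG00000056747 were tested in only 19 of the 20 fits. The direction of the 162 genes was the same in every fit that tested them. These fits share libraries, and in each gene all stressed libraries lay on one side of their prefix's control. The agreement in direction was therefore largely set in advance.

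**Figure D2:**
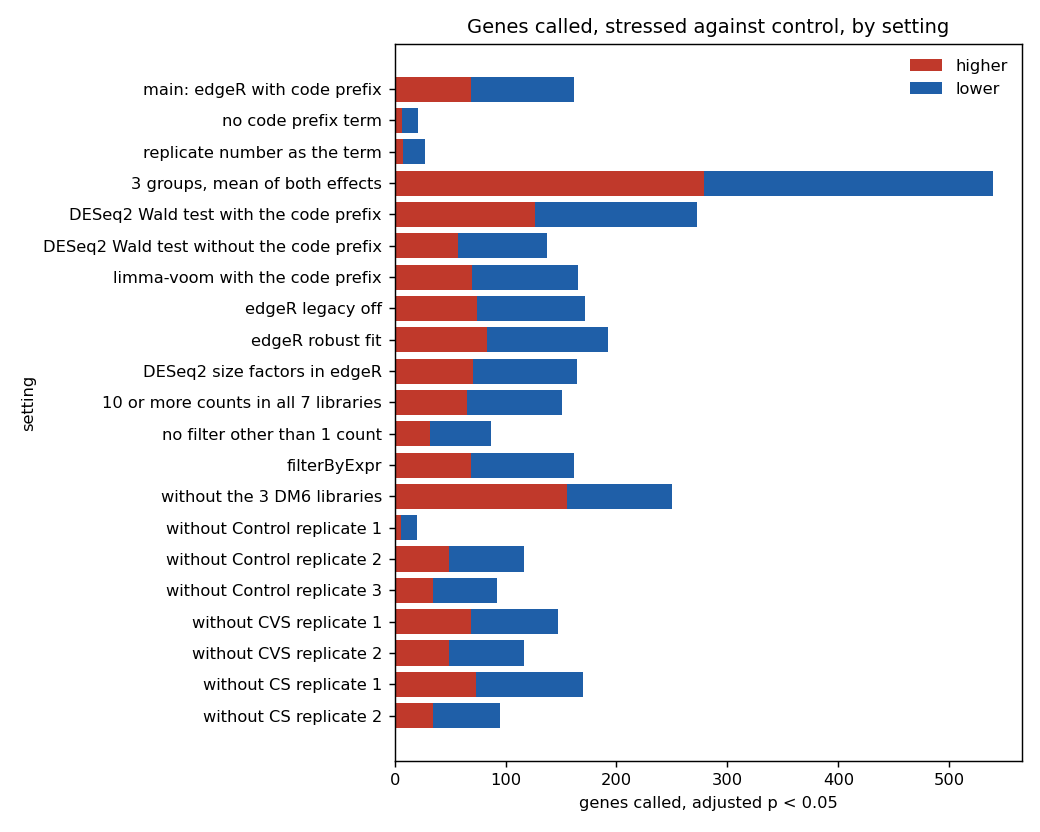
Number of genes called at an adjusted p under 0.05 (x axis) in the fit described and in 20 others (y axis), with genes called higher in red and lower in blue. The bar is shortest without Control replicate 1 (20 genes) and longest for the mean of the CS and CVS effects in a fit of 3 groups (539 genes).

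The list of fatty acid synthesis and storage held the largest rise among the called genes reported here by symbol, that of *Thrsp*, and also genes that fell. Of 33 genes of this list, 14 had a symbol and were tested, 4 were called higher (*Thrsp*, *Scd*, *Plin1*, *Cidec*), 5 lower (*Cd36*, *Dgat2*, *Plin5*, *Vldlr*, *Gpd1*) and 5 were not called. The median log2 fold change of the 14 was 0.30, and 9 of 14 called compare with 41.3% of all genes with a symbol. *Thrsp* (ENSRNOG00000012404), a nuclear protein that promotes the transcription of lipogenic enzymes, had 4.37, 4.50 and 7.68 CPM in Control 1 to 3, 23.0 and 16.1 CPM in CVS 1 and 2, and 24.7 and 40.1 CPM in CS 1 and 2. The lowest stressed library thus held more than the highest control library, and CS 2 was the highest of all. *Thrsp* rose 4.79-fold (log2 fold change 2.26, standard error 0.12, edgeR, Benjamini-Hochberg adjusted p = 2.18e-05). *Scd* (ENSRNOG00000013552), the stearoyl-CoA desaturase that makes monounsaturated fatty acids, had 36.7, 28.2 and 31.3 CPM in the control libraries, 97.5 and 60.9 CPM in CVS, and 93.1 and 94.8 CPM in CS. CVS 2 stood below the other 3 stressed libraries, and still above every control. *Scd* rose 2.58-fold (log2 fold change 1.37, standard error 0.09, edgeR, Benjamini-Hochberg adjusted p = 4.26e-05). *Fasn*, the fatty acid synthase that supplies the desaturase with substrate, had 152 to 182 CPM in control and 180 to 243 CPM in stressed libraries, and its log2 fold change of 0.34 did not pass (standard error 0.08, edgeR, Benjamini-Hochberg adjusted p = 0.106).

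The promoters of *Thrsp* and *Scd*, the called genes with the smallest adjusted p among those given here, and of *Slc9a3* (described below), which had the largest fall of those given by symbol, are shown as examples. Each runs from 250 bases before to 50 bases after the start of transcription on the gene's own strand, and capitals mark an E-box (CACGTG) or a CCAAT box (CCAAT, or ATTGG on the other strand). The sequences are RefSeq's on GRCr8, at chr1:161138915-161139214 (minus strand) for *Thrsp*, chr1:253231682-253231981 (minus strand) for *Scd* and chr1:30995953-30996252 (minus strand) for *Slc9a3*.
Thrsp: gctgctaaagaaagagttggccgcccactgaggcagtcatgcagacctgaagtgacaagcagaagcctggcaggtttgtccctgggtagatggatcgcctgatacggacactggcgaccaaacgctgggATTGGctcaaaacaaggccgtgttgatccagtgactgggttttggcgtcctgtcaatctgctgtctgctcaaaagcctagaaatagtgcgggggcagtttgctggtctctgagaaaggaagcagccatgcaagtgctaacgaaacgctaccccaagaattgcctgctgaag
Scd: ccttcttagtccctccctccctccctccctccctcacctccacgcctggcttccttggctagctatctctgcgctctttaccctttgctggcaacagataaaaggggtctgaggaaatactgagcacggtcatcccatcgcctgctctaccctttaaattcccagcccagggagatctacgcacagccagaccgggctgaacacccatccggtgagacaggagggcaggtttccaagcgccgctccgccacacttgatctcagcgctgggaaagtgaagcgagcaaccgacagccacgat
Slc9a3: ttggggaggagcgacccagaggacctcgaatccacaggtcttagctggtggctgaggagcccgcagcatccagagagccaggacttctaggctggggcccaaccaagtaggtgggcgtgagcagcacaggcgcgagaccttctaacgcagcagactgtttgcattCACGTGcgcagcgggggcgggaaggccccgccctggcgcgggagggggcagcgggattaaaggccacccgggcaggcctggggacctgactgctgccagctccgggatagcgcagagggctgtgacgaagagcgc
The window of *Thrsp* held a CCAAT box in the reverse orientation, that of *Slc9a3* an E-box, and that of *Scd* neither. Of the 113 called genes with a symbol reported here, 71 matched a promoter with a unique symbol. A CCAAT box on either strand was found in 11 of 30 genes called higher and 14 of 41 called lower, where 37.8% of all 24206 promoters held it. An E-box was found in 2 of 30 and 1 of 41, where 6.74% of all promoters held it.

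Several genes of fatty acid uptake and triacylglycerol assembly fell. *Cd36* (ENSRNOG00000040108), a scavenger receptor that takes up fatty acids and lipoprotein lipids, had 63.1, 71.2 and 84.1 CPM in the control libraries, 28.0 and 25.7 CPM in CVS, and 34.4 and 36.0 CPM in CS. All stressed libraries lay below all controls, and *Cd36* was 2.31-fold lower (log2 fold change -1.21, standard error 0.10, edgeR, Benjamini-Hochberg adjusted p = 0.000221). *Dgat2* (ENSRNOG00000016573), which adds the last fatty acid in triacylglycerol synthesis, had 73.4, 70.2 and 50.8 CPM in the control libraries against 34.0, 41.4, 36.3 and 31.4 CPM in CVS 1, CVS 2, CS 1 and CS 2. It was 1.83-fold lower (log2 fold change -0.87, standard error 0.08, edgeR, Benjamini-Hochberg adjusted p = 0.000513) and was called in 19 of the 20 other fits. *Dgat1*, an enzyme of the same reaction, had 38.3 to 54.8 CPM in control, 45.2 and 52.8 CPM in CVS and 130 and 262 CPM in CS libraries. The pooled log2 fold change of 1.18 (standard error 0.40) did not pass, and both CVS libraries lay within the control range. *Vldlr*, a receptor for triglyceride-rich lipoproteins, had 38.4 to 41.2 CPM in control and 25.7 to 28.5 CPM in stressed libraries, with no overlap (log2 fold change -0.53, standard error 0.07, called in 18 of 20). *Plin5*, a droplet coat protein of oxidative tissues, fell by 0.72 on the log2 scale (called in 12 of 20), and *Gpd1*, which makes glycerol 3-phosphate, fell by 0.30 (called in 10 of 20).

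Of 11 names listed as white adipocyte markers, which include synonyms, 7 matched a symbol. Of these 7, 5 were called higher (*Retn*, *Fabp4*, *Cidec*, *Adipoq*, *Plin1*), none lower, and *Cfd* and *Tusc5* were not called. Of all genes with a symbol 16.3% were called higher. *Fabp4* (ENSRNOG00000010805), the fatty acid carrier of adipocytes, had 10.2, 9.37 and 16.6 CPM in the control libraries, 19.96 and 18.3 CPM in CVS, and 29.5 and 37.1 CPM in CS. *Adipoq* (ENSRNOG00000001821), the secreted hormone adiponectin, had 9.18, 8.14 and 11.5 CPM in the control libraries, 16.8 and 13.3 CPM in CVS, and 23.2 and 24.0 CPM in CS. Both were higher in every stressed library than in any control, with the CS libraries above the CVS libraries. The log2 fold change was 1.15 for *Fabp4* (standard error 0.14, edgeR, Benjamini-Hochberg adjusted p = 0.00237, called in 16 of 20). For *Adipoq* it was 0.99 (standard error 0.13, edgeR, Benjamini-Hochberg adjusted p = 0.00573, called in 17 of 20). *Retn*, which encodes the hormone resistin, rose by 1.20 on the log2 scale (called in 11 of 20), *Cidec*, which fuses lipid droplets, by 1.05 (15 of 20) and *Plin1*, the droplet coat of adipocytes, by 0.81 (13 of 20). *Cfd*, the adipocyte protease adipsin, had 5.81 to 8.17 CPM in control and 6.67 to 13.5 CPM in stressed libraries, so that the arms overlapped. The sum of the 7 markers was 35.4 to 54.9 CPM in control and 64.2 to 111 CPM in stressed libraries, and none of the 7 was at 0 in any library. All 7 had a symbol only because the study lists them as changed in CS, on these same libraries. Their calls and their sum are therefore a description and not a test, and markers without a symbol were not described. *Car3*, a carbonic anhydrase abundant in fat and muscle, had 28.3 to 45.9 CPM in control and 67.9 to 93.0 CPM in stressed libraries, and rose 2.24-fold (log2 fold change 1.16, standard error 0.09, edgeR, Benjamini-Hochberg adjusted p = 0.000221). How much of the lipid gene changes goes with these markers was not tested.

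Of 30 genes of fatty acid oxidation and ketone synthesis, 9 had a symbol, 2 were called lower (*Pex11a*, *Acss3*), none higher and 7 were not called, with a median log2 fold change of -0.29. The share called lower was near the 25% of all genes with a symbol. *Pex11a*, a factor of peroxisome division, had 21.9, 23.3 and 15.1 CPM in the control libraries and 10.3, 10.6, 15.1 and 9.24 CPM in CVS 1, CVS 2, CS 1 and CS 2. Control 3 and CS 1 lay at nearly the same level, although each stressed library lay below the control of its prefix (log2 fold change -0.86, standard error 0.14, edgeR, Benjamini-Hochberg adjusted p = 0.0143, called in 15 of 20). *Acss3*, a mitochondrial short-chain acyl-CoA synthetase, had 19.3 to 23.2 CPM in control and 13.5 to 15.0 CPM in stressed libraries (log2 fold change -0.54, standard error 0.09, called in 15 of 20). Of 10 markers of brown adipocytes and muscle, 3 had a symbol, and *Myom2*, a protein of the muscle M-band, was called lower (73.0 to 92.1 CPM in control, 52.3 to 65.6 CPM in stressed libraries, log2 fold change -0.50, called in 17 of 20).

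*Slc9a3* had the largest fall among the called genes reported here by symbol. *Slc9a3* (ENSRNOG00000015159), the sodium-proton exchanger NHE3 of epithelial membranes, had 22.04, 24.9 and 19.9 CPM in the control libraries, 1.92 and 3.02 CPM in CVS, and 5.44 and 3.46 CPM in CS. All stressed libraries lay far below all controls, with the CVS libraries lowest. *Slc9a3* was 6.42-fold lower (log2 fold change -2.68, standard error 0.25, edgeR, Benjamini-Hochberg adjusted p = 0.000513, called in 19 of 20). *Slc6a2*, the noradrenaline transporter that returns catecholamine to chromaffin cells and nerve endings, had 35.4 to 37.9 CPM in control and 18.4 to 28.9 CPM in stressed libraries, and fell by 0.63 on the log2 scale (standard error 0.13, called in 10 of 20). *Slc1a3*, a glutamate transporter, named after its values were seen, had 38.1 to 40.7 CPM in control and 15.7 to 30.4 CPM in stressed libraries (log2 fold change -0.78, standard error 0.13, called in 17 of 20).

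In a list of 19 drug-metabolizing and other enzymes, 11 had a symbol. Of these 11, 7 were called lower (*Cyp2a1*, *Cyp4f4*, *Hoga1*, *Sult1a1*, *Cyp2t1*, *Aox1*, *Tst*), 1 higher (*Car3*, described above) and 3 were not called. The median log2 fold change of the 11 was -0.44. *Hoga1*, *Tst* and *Car3* catalyse other reactions, so these counts do not stand for drug-metabolizing enzymes alone. Of all genes with a symbol 25% were called lower. *Cyp2a1* (ENSRNOG00000020817), a cytochrome P450 that hydroxylates testosterone, had 3.92, 4.66 and 4.89 CPM in the control libraries, 0.693 and 0.403 CPM in CVS, and 1.11 and 1.30 CPM in CS. It was 4.98-fold lower, with no overlap between the arms (log2 fold change -2.32, standard error 0.27, edgeR, Benjamini-Hochberg adjusted p = 0.00237, called in 17 of 20). The lowest library held 8 counts of this gene. *Cyp4f4*, a P450 that hydroxylates the end of fatty acids and leukotrienes, had 13.99 to 14.6 CPM in control and 7.05 to 8.59 CPM in stressed libraries. Both arms were narrow, and its log2 fold change was -0.92 (standard error 0.11, edgeR, Benjamini-Hochberg adjusted p = 0.00237, called in 19 of 20). *Hoga1*, a mitochondrial aldolase of hydroxyproline breakdown, fell by 0.78 on the log2 scale (called in 19 of 20) and *Sult1a1*, a phenol sulfotransferase, by 0.65 (called in 17 of 20). The falls of *Cyp2t1* (0.63), *Aox1* (0.44) and *Tst* (0.38) were smaller, again on the log2 scale, and were called in 14, 12 and 17 of 20 fits.

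Retinoid genes moved in both directions. Of 19 genes 5 had a symbol, 3 were called higher (*Rbp4*, *Lrat*, *Bco2*), 1 lower (*Aldh1a3*), and *Retsat* was not called. Of all genes with a symbol 16.3% were called higher and 25% lower. *Lrat* (ENSRNOG00000025608), which esterifies retinol for storage, had 131, 191 and 143 CPM in the control libraries, 230 and 280 CPM in CVS, and 250 and 357 CPM in CS. *Aldh1a3* (ENSRNOG00000052070), which oxidizes retinal to retinoic acid, had 104, 119 and 98.1 CPM in the control libraries, 56.2 and 70.1 CPM in CVS, and 45.3 and 53.0 CPM in CS. The storage enzyme was thus higher and the oxidizing enzyme lower in every stressed library than in any control. *Lrat* rose by 0.91 on the log2 scale (standard error 0.11, edgeR, Benjamini-Hochberg adjusted p = 0.00274, called in 18 of 20) and *Aldh1a3* fell by 0.91 (standard error 0.08, edgeR, Benjamini-Hochberg adjusted p = 0.000513). *Rbp4*, the retinol carrier of plasma that fat also makes, had 1.88 to 3.56 CPM in control and 3.17 to 9.01 CPM in stressed libraries, with overlap between the arms, and was called in 9 of 20. *Bco2*, which cleaves carotenoids, rose by 0.30 on the log2 scale (called in 9 of 20).

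Of 27 genes of steroid hormone synthesis 5 had a symbol, 1 was called higher (*Cyp11b2*) and 1 lower (*Cyp27a1*). The called share was near the 41.3% of all genes with a symbol. *Cyp11b2* (ENSRNOG00000030111), the aldosterone synthase of the outer cortex, had 1682, 1917 and 2100 CPM in the control libraries, 2597 and 2454 CPM in CVS, and 2384 and 2525 CPM in CS. The arms did not overlap, although the rise was small (1.33-fold, log2 fold change 0.41, standard error 0.07, edgeR, Benjamini-Hochberg adjusted p = 0.0167, called in 14 of 20). Reads of *Cyp11b2* may be split with those of its close relative *Cyp11b1*, which has no symbol here. *Cyp27a1*, a mitochondrial sterol hydroxylase, had 156 to 195 CPM in control and 111 to 132 CPM in stressed libraries (log2 fold change -0.56, standard error 0.07, edgeR, Benjamini-Hochberg adjusted p = 0.0026, called in 18 of 20). *Scarb1* and *Nr0b1*, a nuclear receptor that represses steroidogenic genes, had log2 fold changes of 0.42 (standard error 0.09) and -0.52 (standard error 0.11) and did not pass. The adjusted p was 0.0589 and 0.0645 (edgeR with Benjamini-Hochberg adjustment). *Akr1c14*, which reduces steroid ketones, did not pass either (-0.66). None of the 23 genes of cholesterol synthesis had a symbol, so none was described.

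The clock genes *Npas2* and *Cry1* were called in opposite directions. Of 21 names in the clock list, which include synonyms, 6 matched a symbol. Of these, 1 was called higher (*Cry1*), 1 lower (*Npas2*), and *Per2*, *Nr1d1*, *Dbp* and *Wee1* were not called. The called share was below the 41.3% of all genes with a symbol. *Npas2* (ENSRNOG00000013408), a partner of BMAL1 that activates clock genes, had 14.02, 14.7 and 13.4 CPM in the control libraries, 4.94 and 7.15 CPM in CVS, and 7.76 and 10.2 CPM in CS. *Cry1* (ENSRNOG00000006622), which represses that activation, had 16.2, 18.7 and 17.8 CPM in the control libraries, 39.98 and 31.2 CPM in CVS, and 22.2 and 29.7 CPM in CS. Neither gene overlapped between the arms. Among the CVS stressors, shifts of the light cycle were kept out of the last days before the glands were taken. Whether they affected these genes was not tested. *Npas2* fell by 0.89 on the log2 scale (standard error 0.17, edgeR, Benjamini-Hochberg adjusted p = 0.0389, called in 14 of 20) and *Cry1* rose by 0.82 (standard error 0.17, edgeR, Benjamini-Hochberg adjusted p = 0.0459, called in 9 of 20). *Nr1d1*, a repressor of BMAL1, had 161, 167 and 169 CPM in the control libraries and 67.7, 117, 128 and 127 CPM in CVS 1, CVS 2, CS 1 and CS 2, below every control. Its log2 fold change of -0.57 did not pass (standard error 0.16, edgeR, Benjamini-Hochberg adjusted p = 0.171). *Per2*, another repressor, had 74.3 to 84.5 CPM in control, 135 and 120 CPM in CVS, and 81.4 and 82.3 CPM in CS, so that the CS libraries lay within the control range.

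Of 30 genes of catecholamine synthesis and secretion 5 had a symbol, and *Slc6a2*, given above, was the only one called. This was a smaller share than the 41.3% of all genes with a symbol. *Ptprn*, a protein of dense-core granules, had 29.4 to 30.5 CPM in control and 35.2 to 47.8 CPM in stressed libraries without overlap, but its log2 fold change of 0.47 did not pass (standard error 0.11, edgeR, Benjamini-Hochberg adjusted p = 0.077). Among 9 markers of Schwann cells and neurons 3 had a symbol. *S100b* had a log2 fold change of 0.47 and did not pass (edgeR, Benjamini-Hochberg adjusted p = 0.268). *Tubb3*, a neuronal tubulin, had 67.7 to 72.3 CPM in control and 39.9, 40.9, 41.9 and 65.7 CPM in CVS 1, CVS 2, CS 1 and CS 2. CS 2 lay just below the controls and 0.063 below Control 3 on the log2 scale, and the fall of 0.57 was called in 8 of 20. *Map2*, a microtubule protein of dendrites, had 53.6 to 70.9 CPM in control and 68.7 to 117 CPM in stressed libraries with overlap, and its rise of 0.50 on the log2 scale was called in 11 of 20.

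In the list of basement membrane, adhesion and matrix, 13 of 24 genes had a symbol, 2 were called higher (*Nid1*, *Reln*) and 2 lower (*Cdh8*, *Ddr1*), a smaller share than the 41.3% of all genes with a symbol. *Nid1* (ENSRNOG00000002461), the basement membrane linker nidogen, had 385, 367 and 407 CPM in the control libraries, 691 and 536 CPM in CVS, and 636 and 634 CPM in CS. It rose 1.59-fold with no overlap (log2 fold change 0.67, standard error 0.06, edgeR, Benjamini-Hochberg adjusted p = 0.00063). *Cdh8* (ENSRNOG00000056643), a cadherin of neural tissue, had 7.61, 8.59 and 8.02 CPM in the control libraries, 2.61 and 2.92 CPM in CVS, and 3.56 and 3.89 CPM in CS. It was 2.45-fold lower with no overlap (log2 fold change -1.29, standard error 0.16, edgeR, Benjamini-Hochberg adjusted p = 0.00299, called in 19 of 20). *Reln*, a secreted matrix glycoprotein, rose by 0.53 on the log2 scale (called in 13 of 20) and *Ddr1*, a collagen receptor, fell by 0.40 (called in 14 of 20).

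In the cell cycle and growth list 12 of 23 genes had a symbol, 2 were called higher (*Fzd6*, *Cdkn1c*) and 2 lower (*Rprm*, *Amd1*). This was a smaller share than the 41.3% of all genes with a symbol. *Rprm* (ENSRNOG00000005109), a p53 target that arrests cells before mitosis, had 29.9, 25.4 and 22.3 CPM in the control libraries, 12.2 and 10.4 CPM in CVS, and 12.5 and 11.6 CPM in CS. The 4 stressed libraries were close to each other, and *Rprm* was 2.27-fold lower (log2 fold change -1.19, standard error 0.09, edgeR, Benjamini-Hochberg adjusted p = 0.000221). *Fzd6*, a Wnt receptor, had 58.8 to 66.8 CPM in control and 79.9 to 90.2 CPM in stressed libraries (log2 fold change 0.42, called in 15 of 20). *Cdkn1c*, the cell cycle inhibitor p57, had 99.8 to 110 and 124 to 143 CPM (log2 fold change 0.38, called in 13 of 20). *Amd1*, an enzyme of polyamine synthesis, fell by 0.30 on the log2 scale (called in 10 of 20).

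Other lists held no called gene among the few with a symbol. These were 2 of 21 glucocorticoid-responsive genes (*Klf15*, *Angptl4*), 1 of 17 immediate early genes (*Egr1*), and 7 of 32 genes of the amino acid response and secretory pathway stress. The leukocyte list had 1 of 7 (*Mrc1*), and the endothelium, blood and capsule lists had none. In the secretory pathway list, *Creb3l1*, a membrane-bound transcription factor, had 9.65 to 10.4 CPM in control, 17.7 and 14.9 CPM in CVS, and 34.2 and 66.6 CPM in CS. All stressed libraries lay above all controls, and the pooled log2 fold change of 1.56 had a standard error of 0.33 (edgeR, Benjamini-Hochberg adjusted p = 0.054).

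**Figure D3:**
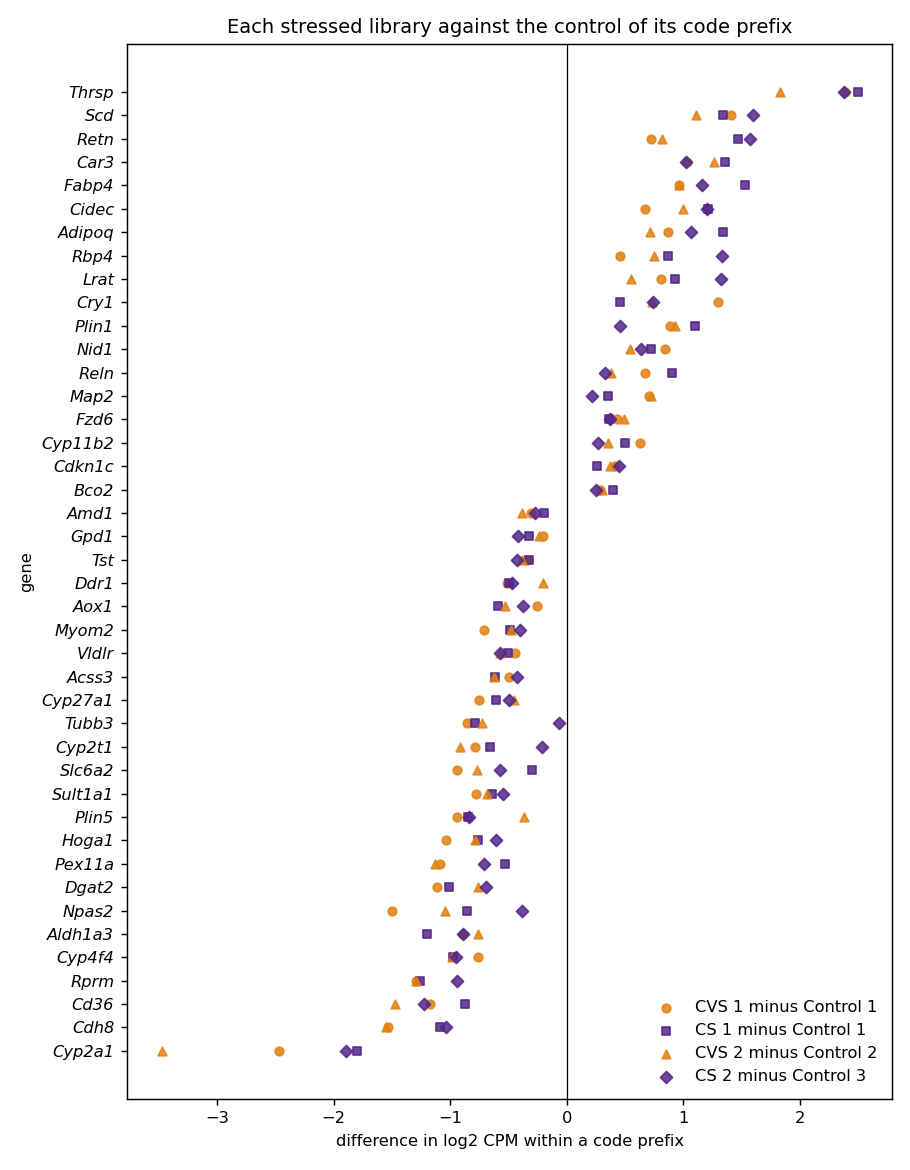
Difference in log2 CPM between each stressed library and the control library with the same code prefix (x axis) for the called genes of the lists (y axis), with circles and triangles for CVS and squares and diamonds for CS. All 4 points of each gene lie on one side of 0, from -3.48 (*Cyp2a1* in CVS 2) to 2.49 (*Thrsp* in CS 1), and the point nearest to 0 is that of *Tubb3* in CS 2 (-0.063).

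Several of the largest changes lay outside the lists. Among the genes that rose, *Sptssb* (ENSRNOG00000009388), a small subunit of the serine palmitoyltransferase that starts sphingolipid synthesis, had 0.357, 1.02 and 1.20 CPM in the control libraries, 2.27 and 4.78 CPM in CVS, and 3.05 and 2.20 CPM in CS. Its level was low and its controls were spread, and it rose 3.96-fold (log2 fold change 1.99, standard error 0.33, edgeR, Benjamini-Hochberg adjusted p = 0.0179, called in 15 of 20). *Sgms2*, a sphingomyelin synthase that was named after its values were seen, had 6.22 to 6.51 CPM in control and 9.91 to 12.9 CPM in stressed libraries (log2 fold change 0.84, standard error 0.12, called in 18 of 20). *Eva1a* (ENSRNOG00000007118), a regulator of autophagy, had 3.00 to 3.54 CPM in control and 6.80 to 8.40 CPM in stressed libraries, a 2.36-fold rise (edgeR, Benjamini-Hochberg adjusted p = 0.00299). *Gls2*, a mitochondrial glutaminase, had 15.0 to 19.6 CPM in control, 23.1 and 28.2 CPM in CVS, and 38.2 and 52.5 CPM in CS, and rose by 1.03 on the log2 scale (called in 13 of 20). *Ackr3*, an atypical chemokine receptor, had 4.46 to 6.14 and 6.90 to 12.4 CPM and rose by 0.93 (called in 15 of 20).

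Among the genes that fell, *Fetub* (ENSRNOG00000001806), a secreted protease inhibitor, had 6.86, 5.77 and 5.19 CPM in the control libraries, 1.57 and 0.856 CPM in CVS, and 1.68 and 1.34 CPM in CS. It was 4.55-fold lower with no overlap (log2 fold change -2.19, standard error 0.18, edgeR, Benjamini-Hochberg adjusted p = 0.000293). AABR07063425.1 (ENSRNOG00000046707), which the study's annotation lists as a miRNA gene, had 27.5, 33.7 and 25.2 CPM in the control libraries, 5.07 and 7.25 CPM in CVS, and 9.06 and 10.1 CPM in CS. It was 3.58-fold lower (log2 fold change -1.84, standard error 0.19, edgeR, Benjamini-Hochberg adjusted p = 0.00088). LOC500035, listed as protein-coding, had widely spread controls (1025, 530 and 786 CPM) and 279 to 469 CPM in stressed libraries (log2 fold change -1.07, called in 15 of 20). *Iqch* (-0.98, called in 14 of 20) and *Tmprss11d*, a membrane serine protease (-0.93, called in 15 of 20), completed the most strongly lowered genes. Of the 162 genes 48 had no symbol, 24 higher and 24 lower. ENSRNOG00000003769 and ENSRNOG00000001416 had the largest rises of these, with log2 fold changes of 2.71 (called in 10 of 20) and 1.97 (called in 13 of 20). The former had 0.0409 to 0.129 CPM in control and 0.302 to 1.10 CPM in stressed libraries, with 1 count in its lowest library. ENSRNOG00000056747 had the largest fall (-2.95, called in 10 of 20, with 0.446 to 3.09 CPM in control and 0.0503 to 0.318 CPM in stressed libraries), again with 1 count in its lowest library.

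**Figure D4:**
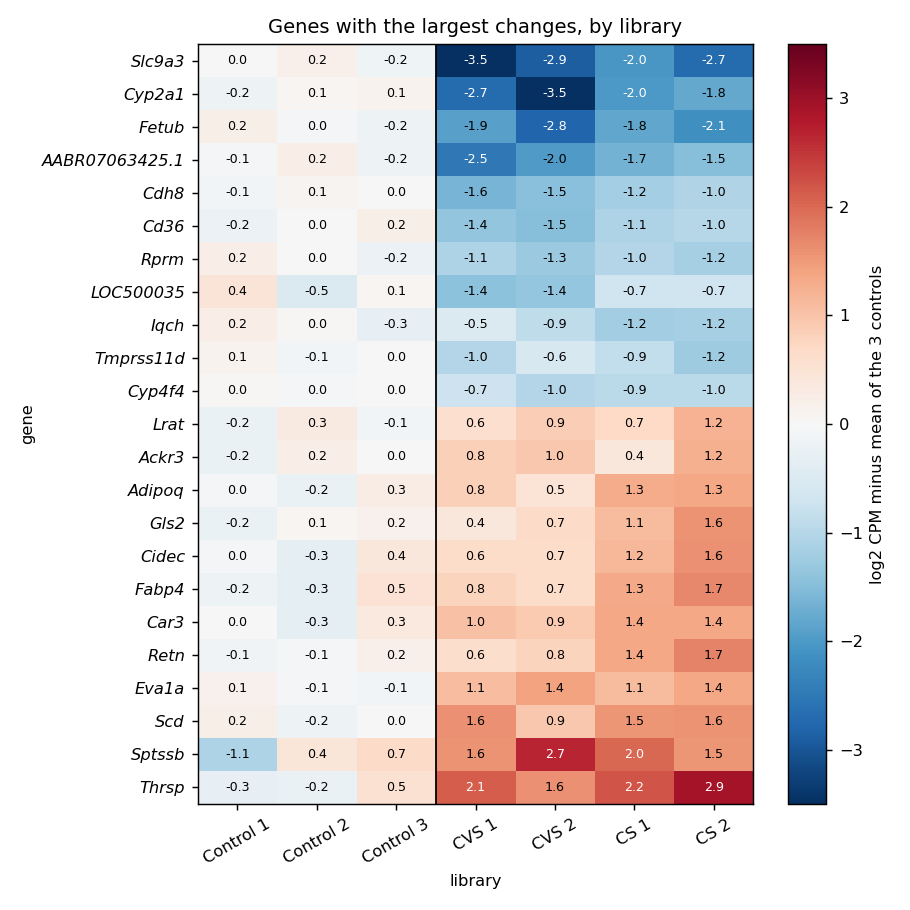
Log2 CPM minus the mean of the 3 control libraries (colour and number in each cell) for the genes with the largest changes and no overlap between the arms (y axis) in each of the 7 libraries (x axis, controls left of the line). The 4 stressed columns of each row share one sign, and the controls of *Sptssb* and LOC500035 spread most.

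The comparison pooled 2 protocols, so the effect of each was estimated in a fit of 3 groups with the code prefix as a term. It left 2 residual degrees of freedom. CVS and CS shared a prefix only in DM6, whereas CVS 2 and CS 2 were each set beside a single control library. Against the same 3 control libraries, this fit called 572 genes (3.74%) in CS, 2.06% higher and 1.67% lower, and 264 (1.72%) in CVS, 0.784% higher and 0.94% lower. Of the 162 genes of the pooled comparison, 120 were called in both protocols, 35 in CS and not CVS, 5 in CVS and not CS, and 2 in neither. The 5 included *Cry1* and *Tubb3*. Conversely, 4 genes called in both protocols were not called when pooled, *Creb3l1*, *Phgdh* and 2 without a symbol. In the direct contrast of CS with CVS 119 genes were called (0.777%), 0.477% higher and 0.3% lower in CS, and 8 of the 162 were among them. These were *Slc9a3*, AABR07063425.1, *Map2*, *Gls2*, *Arhgap32*, *Klhl29*, *Gmpr* and ENSRNOG00000054657. In the pooled comparison *Arhgap32* was called in 14 of the 20 other fits, *Gmpr* in 12, *Klhl29* in 11 and ENSRNOG00000054657 in 8. The log2 fold change of *Slc9a3* was -3.34 (standard error 0.18) under CVS and -2.20 (standard error 0.16) under CS, a difference of 1.14 (standard error 0.22, edgeR, Benjamini-Hochberg adjusted p = 0.0346). For *Gls2* the log2 fold change was 0.62 under CVS and 1.38 under CS (standard error 0.09 for both), a difference of 0.76 (standard error 0.10, edgeR, Benjamini-Hochberg adjusted p = 0.0052). For *Thrsp* the log2 fold changes were 2.15 in CVS and 2.36 in CS, for *Scd* 1.32 and 1.42, for *Nid1* 0.70 and 0.64, and for *Dgat2* -0.91 and -0.83, and these differences did not pass.

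**Figure D5:**
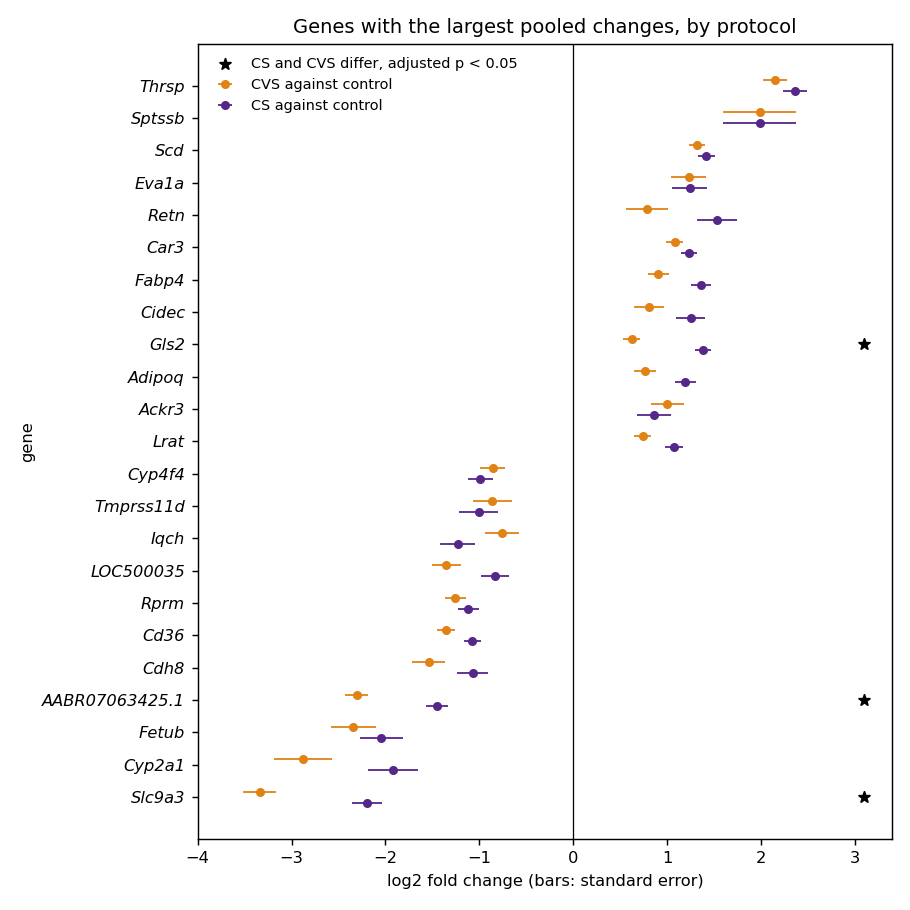
Log2 fold change against control (x axis) with its standard error (bars) in CVS (orange) and CS (purple) for the genes with the largest pooled changes (y axis), from the fit of 3 groups. Stars mark the 3 of these genes whose CS and CVS effects differed (*Gls2*, AABR07063425.1 and *Slc9a3*).

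The study's own lists divided the genes by protocol, and they were chosen on these libraries. Of the 44 genes it lists for both protocols, 42 were called in the pooled comparison, 10 higher and 32 lower, and *Creb3l1* and *Nr1d1* were not. Of 152 genes it lists for CS and not CVS, 52 were called (22 higher, 30 lower). Of 80 it lists for CVS and not CS, 20 were called (13 higher, 7 lower).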

How the data were processed

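RNA of 7 adrenal libraries (3 control, 2 CVS, 2 CS, each a pool of 8 to 9 rats) was analysed from 1 deposited table of counts. The authors selected poly(A) RNA for strand-marking libraries. Alignment was to Rnor_6.0, and featureCounts gave the deposited raw counts for each Ensembl gene, with no normalization. The strand setting and the annotation release are not given in the sources used here, so that reads of overlapping genes may mix. Groups came from the sample titles and the code prefix from the library codes. Genes with 10 or more counts in at least 3 libraries were kept (15314 of 32754, of which 9704 had 0 counts throughout). Counts were scaled by TMM and tested with edgeR 4.0.16 (limma 3.58.1, R 4.3.3; estimateDisp, glmQLFit, glmQLFTest) with the arm and the code prefix as terms, which left 3 residual degrees of freedom, and p-values were adjusted by Benjamini-Hochberg over all genes tested. The standard errors given are the size of the log2 fold change divided by the square root of the F statistic of the edgeR test. DESeq2 1.42.0 and limma-voom were alternatives. The study's methods used DESeq2. Log2 CPM were computed with 0.5 counts added. Pairing was checked by correlating, over genes, how far libraries lay from their group's mean. The correlation was 0.301 to 0.534 for a shared prefix and 0.158 to 0.534 for a shared replicate number, where pairs in groups of 2 mirror each other. The replicate number was therefore also fitted as a block.

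Symbols were matched by Ensembl id from the study's gene tables (276 genes), read from page images. In 44 ids the number of digits was set back, and in 3 names a misread letter was set to the RefSeq symbol. The genes, lists and tests were chosen with earlier results of these data known. Named genes were the 12 higher and 12 lower called genes with the largest change, no overlap and a symbol, the called genes of the lists, and *Slc9a3*, *Thrsp*, *Scd*, *Cdh8* and *Cd36*. Genes called in the pooled comparison that also passed the contrast of CS with CVS were added. Other genes were named after their values were seen. Left out of the values given are 2 genes, 1 of them called, which stay in the counts. The fits were tested on simulated data. Python 3.11.15, numpy 2.4.6, pandas 2.3.3 and matplotlib 3.10.9 were used for the other values. Quantitative PCR, weights and behavior were not analysed here.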

Additional observations from a re-analysis of the deposited data

Results flagged for a closer look

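In 3 of the 69 genes examined, 1 stressed library stood apart from the other 3, with a gap to its nearest neighbour that was larger, as a ratio to the arm's range in log2 CPM, than Dixon's critical value for 4 samples. Chance gives this in about 1 in 20 groups. The ratio was 0.902 for *Scd*, where CVS 2 was lowest (60.9 CPM against 93.1 to 97.5 CPM). It was 0.901 for *Tubb3*, where CS 2 was highest (65.7 CPM against 39.9 to 41.9 CPM), and 0.858 for *Nr1d1*, where CVS 1 was lowest (67.7 CPM against 117 to 128 CPM).

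Of all genes tested, 0.777% passed the contrast of CS with CVS. The 69 genes included *Arhgap32*, *Gmpr*, *Klhl29* and ENSRNOG00000054657 only because they had passed it and were called when pooled. The count that follows is therefore a description and not a test. The effects of CS and CVS differed in 13 of the 69 genes at a Benjamini-Hochberg adjusted p under 0.05 (edgeR, quasi-likelihood). In the 8 of these that were called in the pooled comparison, the log2 difference of CS minus CVS was 1.14 for *Slc9a3*, 0.86 for AABR07063425.1 and 1.57 for ENSRNOG00000054657, all 3 lower in CVS. It was 0.76 for *Gls2*, 0.46 for *Arhgap32*, 0.53 for *Gmpr* and 0.39 for *Klhl29*, which were higher in CS, and -0.40 for *Map2*, which was higher in CVS. In the 5 that were not called when pooled, it was 1.81 for *Dgat1*, 1.32 for *Creb3l1*, 0.40 for *Chgb*, -0.61 for *Per2* and -0.46 for *Wee1*. With no prefix term edgeR called no gene between CS and CVS, with 1296 genes at an unadjusted p under 0.05, whereas DESeq2 called 73 genes over the whole table.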

How the results depend on the processing

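The number of genes called in the pooled comparison moved by more than 1.5 times from 162 (69 higher, 93 lower) in several fits. It was 21 (7 higher, 14 lower) with no prefix term, 27 (8 higher, 19 lower) with the replicate number as a replicate block in place of the prefix, and 539 (279 higher, 260 lower) for the mean effect of 3 groups. DESeq2's Wald test with the prefix called 273 (127 higher, 146 lower), no filter 87 (32 higher, 55 lower), and the 4 libraries without DM6 250 (155 higher). At an adjusted p under 0.1 and 0.01 in edgeR with Benjamini-Hochberg adjustment there were 258 (119 higher) and 48 (16 higher, 32 lower). Leaving out 1 library gave 20 to 170 genes (6 to 73 higher, 14 to 97 lower). The fits without Control 2 and without CVS 2 gave the same numbers, since the DM8 library left over has no partner.

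In the fit of 3 groups, 572 genes in CS became 36 with no prefix term, 330 with the replicate block, and 363 and 190 under DESeq2 with and without the prefix. The 264 genes in CVS became 13, 123 and, with DESeq2 without the prefix, 107. The 119 genes of CS against CVS became 0 with no prefix term (edgeR, with 1296 genes at an unadjusted p under 0.05) and 73 with DESeq2 without the prefix. The causes were not tested. Control 3 has no partner by replicate number, and Control 3 and CS 2 share the DM10 prefix without sharing a number. Every named gene kept its direction in every fit that tested it, though the fits share libraries. The counts of genes without overlap and of genes on one side within each prefix stayed within 1.5 times under DESeq2's size factors and the stricter filter. With 3 residual degrees of freedom and 1 control library per prefix, single calls near the threshold are uncertain, and at levels under 1 CPM the counts themselves limit the precision.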
